A study of Mus musculus with 11 samples.

Results

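The mechanosensitive and acid-sensing channels were taken as the 10 genes *Piezo1*, *Piezo2*, *Asic1*, *Asic2*, *Asic3*, *Stoml3*, *Tmem120a*, *Tmem63a*, *Tmem63b* and *Tmem150c*, found by symbol among the 36670 genes of the deposited table. They were measured by RNA-Seq of dorsal root ganglia (DRGs), the ganglia that contain sensory neuron somata and their glia, in 11 mice. Of the 15087 genes with a mean of at least 0.5 FPKM (fragments per kilobase of transcript, scaled to library size), 9 were members, and *Stoml3* lay below that level. The groups were WT controls (*n* = 3), WT mice 4 weeks after paclitaxel (PTX, *n* = 3), *Gpr37l1*-KO controls (*n* = 3) and *Gpr37l1*-KO mice 4 weeks after PTX (*n* = 2). PTX, a taxane used in chemotherapy, can leave a painful neuropathy, and *Gpr37l1* encodes an orphan GPCR of satellite glial cells. The KO is constitutive on a C57BL/6 background, so every cell type lacks the receptor. In each group replicate 3 was female and the others were male, so sex and that replicate number cannot be told apart. The methods describe young adult mice of both sexes for behavioural and biochemical assays and either a single or repeated intraperitoneal PTX doses, but do not tie an age or a schedule to the sequenced mice. With KO libraries after PTX numbered 2 and 3, the values below follow the replicate numbers in each group.

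Piezo channels are very large trimers that open when the membrane is stretched or indented. PIEZO2 carries touch and proprioception in sensory neurons, and PIEZO1 is best known from endothelium, red cells and other cells that sense flow and pressure. Acid-sensing ion channels (ASICs) are proton-gated sodium channels built as trimers of like or mixed subunits, and ASIC3 is the subunit best known in sensory neurons. STOML3 is a stomatin-like membrane protein that tunes mechanosensitive channels. TMEM63A and TMEM63B belong to the OSCA/TMEM63 family of osmosensitive and stretch-sensitive channels. TMEM120A (TACAN) and TMEM150C (Tentonin 3) have been proposed as mechanosensitive channels or modulators, and their role as pores is disputed.

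The members differed in the CpG content of their promoters, a feature of sequence that the choice of genes did not use. RefSeq promoters on GRCm38.p6, each 300 bases long (250 before and 50 after a start), were found for 9 of the members. Among all 32851 promoters the median was 7 CpGs, 51.35% had at most 7 and 11.68% had at least 30. *Piezo1*, *Tmem63a*, *Tmem63b* and *Tmem120a* had 34, 33, 34 and 32 CpGs. *Asic1* and *Asic3* had 7 each and *Stoml3* had 4, while the 2 promoters of *Asic2* held 9 and 16 and the 3 of *Tmem150c* held 13, 21 and 37. Stretches of 100 bases that lie in no annotated exon are shown for the member with the highest level (*Asic3*), the lowest member tested (*Piezo1*) and the member near 0 (*Stoml3*), with each CpG in capitals.
*Asic3*, chr5:24413292-24413391, plus strand: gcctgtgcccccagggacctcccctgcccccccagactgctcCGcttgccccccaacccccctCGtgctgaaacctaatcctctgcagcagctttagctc
*Piezo1*, chr8:122551330-122551429, minus strand: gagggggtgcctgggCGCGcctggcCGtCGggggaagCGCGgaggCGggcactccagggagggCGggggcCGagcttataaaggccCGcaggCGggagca
*Stoml3*, chr3:53488553-53488652, plus strand: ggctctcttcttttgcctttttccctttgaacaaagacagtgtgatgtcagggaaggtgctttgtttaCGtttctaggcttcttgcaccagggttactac
These stretches held 2, 11 and 1 CpGs. The highest and the lowest member by level both had few CpGs, so the order of the levels did not follow the CpG counts in these 3 genes.

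Depth was 52735648 to 80348732 counts per library with a median of 75538569, and both KO libraries after PTX lay at the lower end (54914928 and 56747335). *Gpr37l1* was at 14.56 to 35.7 FPKM in the 6 WT mice and at 0.21 to 1.15 FPKM in the 5 KO mice, so the genotype labels were borne out. WT control 1 stood apart, with the genes *CT010467* and *Gm23935* at 14803 and 12929 FPKM against at most 2889 and 2060 in the other libraries. The tissue check held: the summed FPKM of 8 sensory neuron markers was 2984 to 3972.

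In WT controls the levels spanned from about 40 FPKM to near 0 (the plot of levels by library). *Asic3* was at 41.90, 38.47 and 38.91 FPKM (39.76 ± 1.87, SD), and *Tmem63b* at 36.37, 39.90 and 37.85 FPKM (38.04 ± 1.77). Among the WT controls these neighbours did not differ beyond their spread, and *Asic3* was the higher in 2 of 3. Over all mice *Asic3* was the higher in 10 of 11, with means of 42.88 and 38.93 FPKM. *Asic2* followed at 23.48 ± 1.01, *Piezo2* at 17.66 ± 1.23, *Tmem150c* at 16.77 ± 1.36 and *Asic1* at 14.65 ± 1.65 FPKM. *Piezo2* exceeded *Tmem150c* in 3 of 3 WT controls and in 9 of 11 mice, by less than the SD of either. *Tmem120a* lay at 9.85 ± 0.73, *Tmem63a* at 6.84 ± 1.27 and *Piezo1* at 0.713 ± 0.220 FPKM. All other neighbours kept this order in each of the 11 mice.

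**Figure D1:**
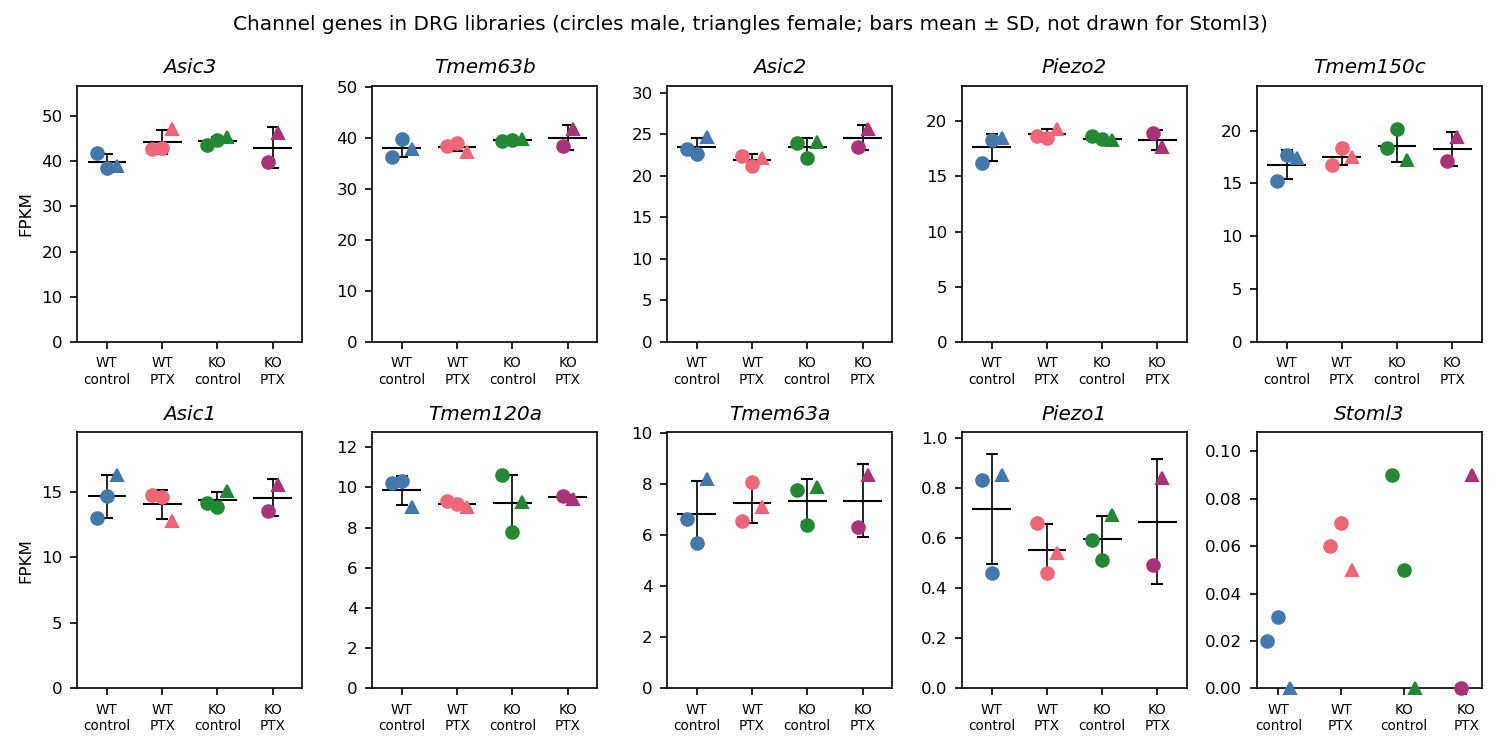
Level in FPKM (y axis, from 0) of the 10 genes in each library of the 4 groups (x axis), males as circles and females as triangles, with the mean as a horizontal line and the SD as the error bar except for Stoml3. Most groups overlap, and Piezo1 and Stoml3 stay below 1 FPKM.

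The spread between mice was smallest for *Tmem63b* and *Piezo2* among the members (the plot of spread against level). Over all 11 mice, the coefficient of variation (SD as a percent of the mean) was 3.81% for *Tmem63b* and 4.40% for *Piezo2*, and 1.38% and 2.77% of tested genes had a lower value (2.66% and 5.30% of those with a mean of at least 5 FPKM). It was 5.54% for *Asic2*, 6.82% for *Asic3*, 7.39% for *Asic1*, 7.52% for *Tmem150c* and 8.17% for *Tmem120a*. By the same measure, 27.05 to 42.51% of genes of at least 5 FPKM varied less than *Asic3*, *Asic1*, *Tmem150c* and *Tmem120a*. *Tmem63a* varied by 12.7%, more than 79.24% of such genes, and *Piezo1* by 24.6%. The median was 11.3% over all tested genes and 8.83% over the 7341 with a mean of at least 5 FPKM. This spread takes in all groups, so it includes any effect of PTX, genotype and sex.

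**Figure D2:**
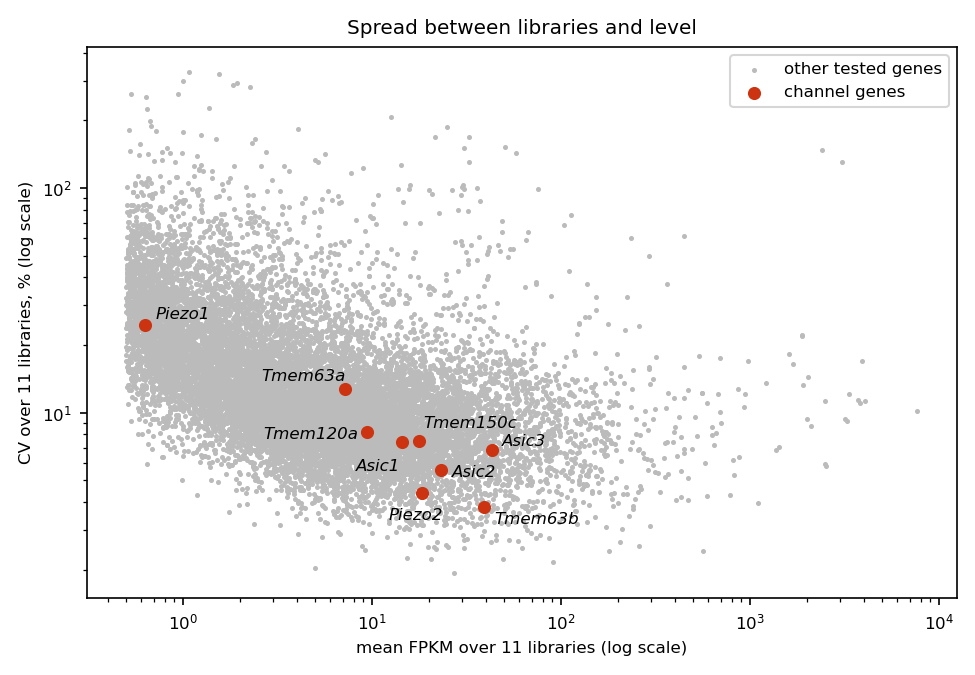
Coefficient of variation over the 11 libraries (y axis, %, log scale) against mean FPKM (x axis, log scale) for all tested genes in grey and the 9 tested channel genes in red. Tmem63b (3.81%) and Piezo2 (4.40%) lie at the lower edge, and Piezo1 (24.6%) among the genes near the filter.

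The first question was whether PTX or loss of *Gpr37l1* moved these genes (the plot of fold changes). With edgeR (quasi-likelihood, p adjusted by Benjamini-Hochberg), none of the 9 tested members passed an adjusted p of 0.05 for PTX in WT mice, PTX in KO mice, KO in controls, KO after PTX, the difference of the PTX effect between genotypes, either main effect, or sex. Calls by edgeR were rare: 0.00663% of tested genes for the PTX effect in WT, the PTX effect in KO, the KO effect in controls and the difference of the PTX effect, 0.0133% for KO after PTX and for PTX or KO averaged over the other factor, and 0.0398% for sex. DESeq2 called more genes, 2.05% for the PTX effect in WT, 0.192% for that in KO, 0.278% for KO in controls, 0.0663% for KO after PTX, 0.0795% for the difference of the PTX effect, 0.829% and 0.186% for PTX and KO averaged over the other factor and 0.815% for sex, and none of them was a member. limma called at most 5 genes in a comparison and 0 members. At an unadjusted p under 0.05, 0 of 9 members passed for PTX in WT, where 13.5% of tested genes did. The counts were 0 of 9 for PTX in KO (4.32% of genes), 0 for KO in controls (7.54%), 1 for KO after PTX (3.55%), 0 for the difference of the PTX effect (6.3%) and 0 for sex (8.44%). A p that misses the threshold does not show that levels were equal, so the intervals bound the change. For the 8 members other than *Piezo1*, the 95% intervals in the 4 comparisons of groups lay between log2 fold changes of -0.37 and 0.39, that is 0.776- to 1.313-fold. The estimates themselves ran from -0.10 to 0.16. The difference of the PTX effect between genotypes was bounded less tightly, with intervals between -0.57 and 0.54 for these 8 members and from -0.38 to 1.26 for *Piezo1*. The median log2 fold change of the 9 members was 0.01 for PTX in WT, against -0.01 over all tested genes, and 0.06 for KO in controls, against 0.00. The comparisons of PTX in WT and of KO in controls share the WT controls.

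**Figure D3:**
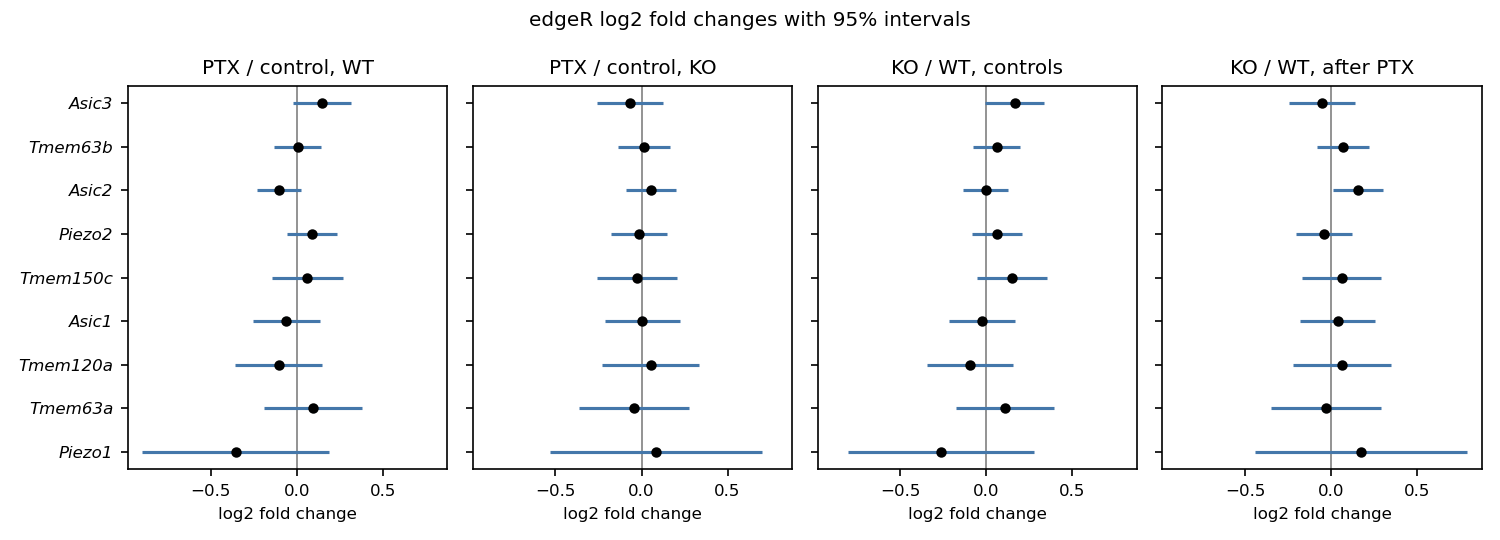
log2 fold change (x axis, points) with its 95% interval (lines) from edgeR for the 9 tested channel genes in the 4 comparisons of groups. Intervals other than those of Piezo1 stay between -0.37 and 0.39, and the interval of Asic2 for KO against WT after PTX lies just above 0.

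Among the Piezo genes, *Piezo2*, the channel of touch and proprioception, was at 16.25, 18.27 and 18.46 FPKM in WT controls and at 18.70, 18.45 and 19.33 FPKM in WT mice after PTX. The groups overlapped, since 1 of the control values exceeded 18.45. The log2 fold change was 0.09 (SE 0.06). It was 0.04 without WT control 1, 0.06 without WT PTX replicate 3 and 0.12 without WT control 3. In KO mice *Piezo2* was at 18.62, 18.41 and 18.27 FPKM without PTX and at 18.97 and 17.63 FPKM after it. Its intervals over the 4 comparisons lay between -0.20 and 0.23. WT control 1, the library that stood apart, held the lowest *Piezo2* value of all, and also the lowest of *Tmem63b* and *Tmem150c*.

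*Piezo1*, by contrast, was measured near the filter and poorly bounded. It was at 0.83, 0.46 and 0.85 FPKM in WT controls and at 0.66, 0.46 and 0.54 FPKM after PTX, a log2 fold change of -0.35 (SE 0.24). In KO controls it was at 0.59, 0.51 and 0.69 FPKM, a log2 fold change of -0.26 (SE 0.24) against WT controls. After PTX in KO mice it was at 0.49 and 0.84 FPKM. Its intervals over the 4 comparisons of groups reached from -0.90 to 0.79, so changes within that range are not excluded by these data. Without WT control 1 the estimates shrank to -0.11 for PTX in WT and -0.02 for KO in controls, and without WT control 2, the lowest, they grew to -0.57 and -0.47. None of these passed the threshold. The summed FPKM of 8 endothelial markers was 27.68 to 31.19 in WT controls and 26.56 to 32.42 after PTX. It was 31.63 to 33.42 in KO controls, above all WT controls, and 27.26 to 28.48 in KO mice after PTX, without overlap with KO controls. The summed FPKM of 7 blood markers was 226.2, 211.5 and 315.2 in WT controls, 315.0, 107.4 and 95.52 in WT mice after PTX, 318.5, 82.38 and 108.9 in KO controls and 86.21 and 155.4 in KO mice after PTX. The mouse with the lowest *Piezo1* also had the lowest blood sum in 3 of the 4 groups (not in WT mice after PTX). The mouse with the highest had the highest sum in 3 of the 4 (not in KO controls). Blood was not alone in this. In every group but WT mice after PTX, the sum of 4 fibroblast markers matched *Piezo1* at both ends. In the same groups the mouse with the highest *Piezo1* was the female and had the highest endothelial sum. The log2 fold change of *Piezo1* in female against male mice was 0.33 (SE 0.19), with an adjusted p of 0.659 by edgeR. With so few mice per group, such matches are easily met. The part of these cell types in the *Piezo1* values was not tested. *Piezo2* exceeded *Piezo1* by 19.6- to 40.1-fold within the mice, with a mean of 30.8.

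Among the 8 tested members other than *Piezo1*, the largest estimates in the 4 comparisons of groups were those of *Asic3* for KO in controls and of *Asic2* for KO after PTX, and neither passed the threshold. *Asic3*, which encodes the ASIC subunit best known in sensory neurons, was at 41.90, 38.47 and 38.91 FPKM in WT controls and at 42.63, 42.84 and 47.22 FPKM after PTX. All 3 PTX values were above all control values, with a log2 fold change of 0.15 (SE 0.08) and an adjusted p of 0.420 by edgeR. In KO controls *Asic3* was at 43.65, 44.74 and 45.34 FPKM, also above all WT controls, with a log2 fold change of 0.16 (SE 0.08) and an adjusted p of 0.659. Without WT control 3 these estimates were 0.08 and 0.10, and without WT control 1, the library that stood apart, they were 0.21 and 0.23. After PTX in KO mice it was at 39.80 and 46.18 FPKM, overlapping each other group. The PTX effect in KO minus that in WT was -0.22 (SE 0.11) on the log2 scale, with an adjusted p of 0.724. It was -0.10 without KO PTX replicate 2 and -0.30 without KO PTX replicate 3. Both of these comparisons use the same WT controls. The KO PTX replicate 2 value of 39.80 FPKM lay within the range of the WT controls.

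*Asic2*, which encodes a subunit that is itself little sensitive to acid and modulates the others, had a lower estimate after PTX in WT mice. It was at 23.21, 22.63 and 24.60 FPKM in WT controls and at 22.42, 21.20 and 22.14 FPKM after PTX, all of the latter lower. The log2 fold change was -0.10 (SE 0.06) with an adjusted p of 0.452 by edgeR. In KO mice it was at 23.98, 22.17 and 24.08 FPKM without PTX and at 23.50 and 25.66 FPKM after it. KO mice after PTX were thus above all WT mice after PTX, with a log2 fold change of 0.15 (SE 0.07), the only value with an unadjusted p under 0.05 (0.040 by edgeR), and an adjusted p of 0.993. The PTX effect in KO minus that in WT was 0.16 (SE 0.09), adjusted p of 0.724. Groups that do not overlap were found for 2 of 9 members for PTX in WT (*Asic3* higher and *Asic2* lower), against 14.2% of tested genes. They were found for 0 of 9 for PTX in KO (21.6%), 1 for KO in controls (*Asic3*, 9.28%) and 2 for KO after PTX (*Asic2* and *Tmem120a*, both higher, 20.2%).

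*Asic1* was at 12.98, 14.70 and 16.28 FPKM in WT controls, at 14.76, 14.60 and 12.78 FPKM after PTX, at 14.19, 13.85 and 15.07 FPKM in KO controls and at 13.55 and 15.56 FPKM in KO mice after PTX. The groups overlapped in each comparison, and its intervals lay between -0.25 and 0.26.

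Because ASICs assemble as mixed trimers, the share of each subunit in the summed FPKM of *Asic1*, *Asic2* and *Asic3* was also taken within each mouse (the plot of subunit shares). *Asic3* made up 51.1% ± 2.46 in WT controls, 55.1% ± 2.11 after PTX, 54.1% ± 1.10 in KO controls and 52.3% ± 0.741 in KO mice after PTX. *Asic2* made up 30.1% ± 0.606 in WT controls and 27.3% ± 0.656 after PTX, a difference of -2.80 percentage points, and the shares of these groups did not overlap. In KO mice it made up 28.4% ± 0.931 without PTX and 29.97% ± 0.863 after it, and the KO controls also lay below all WT controls. The level of *Asic2* itself hardly differed there, with means of 23.41 FPKM in KO controls and 23.48 FPKM in WT controls (log2 fold change of -0.005). The mean of *Asic3*, part of the same sum, was 44.58 FPKM in KO controls and 39.76 FPKM in WT controls. The exact two-sided permutation test gave p = 0.1 for the *Asic2* share both for PTX in WT mice and for KO in controls, the smallest p that 3 against 3 allows, and 0.5 after adjustment over the 20 tests of subunit shares and ratios. With 3 against 2 the smallest p is 0.2. This test can therefore not bring a share or ratio under 0.05 between these groups. Shares of transcripts are not shares of channels at the membrane.

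**Figure D4:**
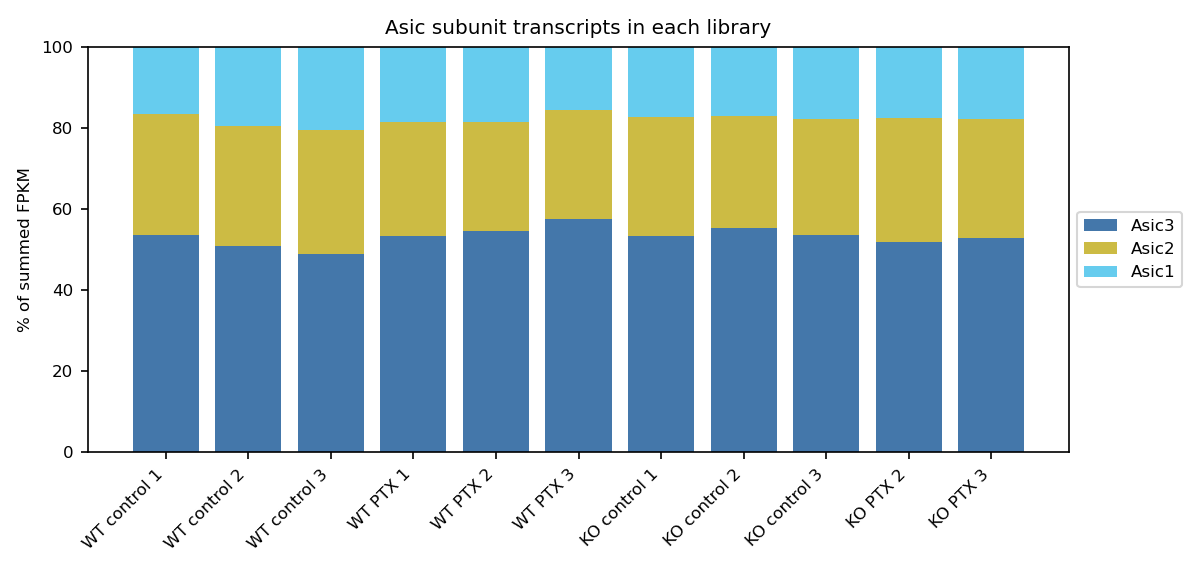
Share of Asic3, Asic2 and Asic1 in their summed FPKM (y axis, %, stacked to 100) in each of the 11 libraries (x axis). Asic3 takes 48.8 to 57.5% of the sum, and the Asic2 share is lower in the 3 WT mice after PTX than in the 3 WT controls.

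*Stoml3*, the modulator of mechanosensitive channels, was close to 0 in the whole ganglion. Its estimated counts were 3, 6 and 0 in WT controls, 13, 12 and 7 in WT mice after PTX, 16, 10 and 0 in KO controls and 0 and 13 in KO mice after PTX. The WT values after PTX lay above those of the WT controls, but edgeR without the expression filter gave an adjusted p of 0.834. With edgeR's own filter (filterByExpr), which it passed, the adjusted p by edgeR was 0.713. It was listed at 0 in WT control 3, KO control 3 and KO PTX replicate 2.

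Of the other TMEM members, *Tmem63b* was at 36.37 to 39.90 FPKM in WT controls, 37.37 to 38.97 after PTX, 39.46 to 39.90 in KO controls and 38.39 and 41.89 in KO mice after PTX, with intervals between -0.14 and 0.22. *Tmem63a*, its lower paralog, was at 6.64, 5.69 and 8.20 FPKM in WT controls, at 6.55, 8.09 and 7.12 FPKM after PTX, at 7.75, 6.38 and 7.90 FPKM in KO controls and at 6.33 and 8.35 FPKM in KO mice after PTX. *Tmem63b* exceeded *Tmem63a* by 4.62- to 7.01-fold within the mice. The female value of *Tmem63a* was the highest of its group in 3 of the 4 groups. Its log2 fold change of female against male mice was 0.21 (SE 0.10), with an adjusted p of 0.605 by edgeR. *Tmem63a* lies 45.77 Mb from *Gpr37l1* on the same chromosome.

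*Tmem150c* was at 15.20, 17.65 and 17.45 FPKM in WT controls and at 18.35, 20.19 and 17.19 FPKM in KO controls, a log2 fold change of 0.15 (SE 0.09) with overlapping groups. This estimate was 0.06 without KO control 2, 0.09 without WT control 1 and 0.24 without KO control 3. After PTX it was at 16.73 to 18.35 FPKM in WT mice and at 17.16 and 19.41 FPKM in KO mice. *Tmem120a* was at 10.23, 10.32 and 9.01 FPKM in WT controls and at 9.30, 9.18 and 9.04 FPKM after PTX, and its intervals lay between -0.36 and 0.35. In KO mice it was at 10.61, 7.80 and 9.28 FPKM without PTX and at 9.59 and 9.41 FPKM after it. The widest scatter of *Tmem120a* was thus within the KO controls.

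A wider list held 49 related mechano- and acid-sensing genes, of which 47 were in the table and 35 were tested. None passed edgeR's adjusted p of 0.05 in any comparison. For PTX in WT, 1 had an unadjusted p under 0.05 in the higher direction and 2 in the lower direction, where 13.5% of all tested genes had one, and the median log2 fold change was -0.07 against -0.01 over all tested genes. *Kcnk3*, an acid-sensitive background potassium channel, was at 4.35, 5.27 and 3.63 FPKM in WT controls and at 3.39, 4.35 and 2.46 FPKM after PTX (log2 fold change of -0.39, SE 0.13, adjusted p = 0.289). *Trpc6*, a cation channel of the TRPC family, was at 3.52, 2.71 and 4.09 FPKM and at 4.70, 4.03 and 5.40 FPKM (0.45, SE 0.14, adjusted p = 0.266). For PTX in KO, *Pkd2* and *Mdfic* had unadjusted p under 0.05, both lower and with adjusted p = 0.999, and for KO in controls *Trpc6* did (adjusted p = 0.657). Both *Kcnk3* and *Trpc6* had unadjusted p under 0.05 for the difference of the PTX effect as well, with adjusted p = 0.724. For sex, 2 were higher and 3 were lower in females at that level, where 8.44% of all tested genes passed, with *Tmc5* (log2 fold change of -0.88), *Otop1* (-0.44) and *Kcnk3* (-0.40) the largest by size and adjusted p of 0.458, 0.567 and 0.447.

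In bulk ganglia, fewer cells of a type and less RNA per cell cannot be told apart. Summed markers of 12 tested genes of myelinated mechanoreceptors and proprioceptors were 756.2 to 792.3 FPKM in WT controls and 763.6 to 821.7 FPKM after PTX, and 10 nociceptor markers were 1075 to 1451 and 961.5 to 1084 FPKM. Markers of macrophages were 48.23 to 55.94 FPKM in WT controls and 31.58 to 43.09 FPKM after PTX, and 42.82 to 53.14 and 34.47 to 37.67 FPKM in KO mice, without overlap in either genotype. Skeletal muscle markers ran from 3.07 to 520.8 FPKM between libraries, with overlapping ranges in WT mice, and were 94.32 to 520.8 FPKM in KO controls against 60.24 to 86.29 FPKM in KO mice after PTX, without overlap. Spinal cord markers were at 11.27 and 27.25 FPKM in KO mice after PTX (replicates 2 and 3), above every other library. They were 2.84 to 4.41 FPKM in KO controls, 2.45 to 8.01 FPKM in WT mice after PTX and 2.43 to 10.58 FPKM in WT controls. The part of these cell types in the channel values was not tested.

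The genes most like *Piezo2* across the 11 libraries, by the mean absolute difference of z-scored log2(FPKM + 1), were *Pdha1* (0.152), *Man1a2* (0.156) and *Cltc* (0.159), against a median of 1.03 over the other 15086 tested genes. For *Asic3* they were *Wfdc2* (0.310), *Syndig1* (0.375) and *Gm32633* (0.417), with a median of 1.11. For *Piezo1* they were *Nfkbil1* (0.345), *Metap1d* (0.349) and *Mettl17* (0.353), with a median of 1.06. All libraries share depth and preparation, and the 3 nearest of so many genes are close by selection.

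By position on mm10, *Asic1* lies on chromosome 15 at 99670368 to 99701130, *Asic2* on chromosome 11 at 80880169 to 81968457, *Asic3* on chromosome 5 at 24413392 to 24417834 and *Stoml3* on chromosome 3 at 53488653 to 53508502, as the deposited table gives them. *Piezo1* lies on chromosome 8 at 122481698 to 122551329, *Tmem63a* on chromosome 1 at 180942344 to 180960841, *Tmem63b* on chromosome 17 at 45660171 to 45686259, and *Tmem120a* and *Tmem150c* on chromosome 5 at 135735485 to 135744448 and 100077872 to 100159808. *Asic1*, *Asic3* and *Stoml3* overlap no other annotated gene. *Piezo1* overlaps *Ctu2* and *Gm20388*, *Asic2* overlaps *5530401A14Rik*, and *Tmem63b* overlaps *Mrpl14*, all on the opposite strand, while antisense genes overlap *Asic2*, *Tmem63a*, *Tmem63b* and *Tmem150c*. On the same strand lie *Gm26497* in *Piezo1*, *1700071K01Rik* in *Asic2*, *Mir7034* in *Tmem120a* and *AC132378.1* in *Piezo2*, which strand would not separate, and *AC124391.1* lies opposite *Piezo2*. The library kit is stranded, and whether strand was used in counting is not given in the sources used here, so the values of these genes may include reads of their neighbours.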

How the data were processed

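Poly(A) RNA of mouse DRGs was sequenced with a stranded kit from 11 mice in 4 groups, taken from the sample labels. The titles and descriptions number the KO PTX libraries differently, and the descriptions were used (2 and 3). Per the labels, the authors' processing notes name cutadapt, FastQC, HISAT2, StringTie and mm10, without versions. The authors deposited FPKM, scaled to transcript length and sequencing depth, with 2 decimals, and estimated counts per gene, not normalized. Counts were rounded to whole numbers.

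Tests used edgeR 4.0.16 in R 4.3.3 (TMM, quasi-likelihood, all 11 libraries in 1 fit, sex as covariate) on the 15087 of 36670 genes whose FPKM averaged 0.5 or more, with Benjamini-Hochberg adjustment over these and a threshold of 0.05. Standard errors are the log2 fold change over the square root of F. Alternatives used DESeq2 1.42.0, limma 3.58.1, other filters and scaling, no sex covariate, the replicate number as a block and each library left out. Exact permutation tests of shares used scipy 1.17.1, with pandas 2.3.3, numpy 2.4.6 and matplotlib 3.10.9 in Python 3.11.15. Scripts were tested on simulated data. Promoters came from RefSeq (GRCm38.p6) and overlaps from the GENCODE M21 annotation.

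The members and gene lists were chosen with earlier results of these data known. Named genes were all members, related genes past the threshold or else the 3 largest changes with an unadjusted p under 0.05, the 3 most similar genes of *Piezo1*, *Piezo2* and *Asic3*, and *Gpr37l1*. A related gene that this rule names is not reported here. *Stoml3* was below the FPKM filter and was tested only with edgeR without that filter or with edgeR's filterByExpr in its place. The WT control group serves 2 comparisons. The edgeR p-values weigh a fold change against the spread between these mice, estimated over all 11 libraries.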

Additional observations from a re-analysis of the deposited data

How the results depend on the processing

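No member was called under any of the 19 alternative settings (1366 tests), with the lowest adjusted p of 0.300 for *Piezo1* for PTX in WT without WT control 2 (the lowest value). The named member log2 fold changes kept their direction in 92 values under other settings and in 132 with a library left out. Many of the latter left out a library of a group outside the comparison. Some of the groups compared did not overlap, as for *Asic2* and *Asic3* for PTX in WT. These kept directions therefore say little about an effect. The 12 leave-one-out values of the *Asic2* and *Asic3* shares for PTX in WT ran from -3.18 to -2.45 and from 2.89 to 5.37 percentage points. The direction for *Asic2* could not change, since its shares in the 2 groups did not overlap. Those of *Asic3* overlapped only between 53.41 and 53.66%, so a kept direction says little there too. The leave-one-out of the shares was chosen after seeing the data. Without WT control 1, *Tmem63b* ranked 1 and *Asic3* ranked 2, so the ranks of both ran from 1 to 2.

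Counts of called genes over the whole table depended on the test, and the cause was not tested. For PTX in WT (1 by edgeR), 2 were called without the filter, 309 by DESeq2, 0 by limma at either pseudocount (1 or 0.1) and 0 without the sex covariate. DESeq2 called 29 for PTX in KO, 42 for KO in controls, 10 for KO after PTX, 12 for the difference of the PTX effect, 125 for PTX over both genotypes, 28 for KO over both treatments and 123 for sex. For PTX over both genotypes limma called 0 and 1 (pseudocount 1 and 0.1) and edgeR without sex 1, and for sex the unfiltered fit called 14. Leaving out a library gave 0 to 30 calls for PTX in WT, 1 to 7 for PTX in KO, 1 to 4 for KO in controls, 2 to 7 for KO after PTX, 1 to 6 for the difference, 1 to 18 and 2 to 5 for the averaged effects and 5 to 12 for sex. The replicate block gave 1, 1, 1, 2, 1, 2 and 2 calls, the counts of the fit without it, and 0 members. Same-numbered mice correlated at a mean r of 0.0525 with 5 of 15 pairs over 0.1, against -0.0262 and 4 of 30 for other pairs, so the check does not pair the mice. The mice numbered 3 also share sex. *Stoml3* had 0 to 16 counts per library, which limits its values, while *Piezo1* had 289 to 630 counts and varied by 24.6% between mice.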
